A study of Homo sapiens with 6 samples.

Results

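Aminoacyl-tRNA synthetases join each amino acid to its matching transfer RNA (tRNA), the step that supplies the ribosome with charged tRNAs. Human cells use separate enzymes for cytosolic and mitochondrial protein synthesis, which for most amino acids are encoded by different nuclear genes, named here with a final 1 for the cytosolic and a final 2 for the mitochondrial enzyme. A part of the cytosolic enzymes is held, with scaffold proteins, in the multi-synthetase complex. When amino acids run short, the transcription factor ATF4 raises many cytosolic synthetase genes together with amino acid transporters and biosynthetic enzymes.

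The genes described were the 39 rows of the gene expression table whose symbols were on a given list of synthetases and scaffolds, out of 46427 genes. They fell into 18 cytosolic enzymes, 16 mitochondrial enzymes, 2 enzymes that serve both compartments from 1 gene (GARS1 and KARS1) and 3 scaffolds of the complex (AIMP1, AIMP2 and EEF1E1). All 39 had reads in each library. The aspartyl-tRNA synthetases were not on the list.

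RNA was sequenced from 3 non-small cell lung cancer (NSCLC) cell lines, H460, H1299 and A549. For each line 1 library came from cells given si-MALAT1, a small interfering RNA against the nuclear long noncoding RNA MALAT1, and 1 control library came from cells that the labels call untreated. The transfection was transient. The methods also describe cells given a control siRNA and do not say which kind of control was sequenced. With untreated controls, the libraries of a pair differ in transfection as well as in MALAT1, and these cannot be told apart. Each line and condition had 1 library, so a change within a line had no replicate check, and the 3 lines served as the replicate pairs of the test across lines.

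The libraries held 42506818 to 68515992 counted reads. In counts scaled for library size, MALAT1 itself changed by -79.9% in H460, -87.1% in H1299 and -86.1% in A549, lower in each library labelled si-MALAT1 than in its control (edgeR quasi-likelihood test, adjusted p = 0.0381). Its antisense partner TALAM1 shares 82.1% of the exonic bases of MALAT1. Of the epithelial markers, KRT8 and KRT18 had 11408 reads or more in every library, while KRT19 was abundant only in H460 and CDH1 only in A549. PTPRC and CD3E, which mark blood cells, had 0 reads in all 6 libraries, and the fibroblast collagen gene COL3A1 had 4961 and 4300 reads in H460. CDKN2A, which is deleted in H460 and A549, had 0 reads there and 2938 and 2679 in H1299. In bulk RNA, fewer cells of a type and less RNA per cell cannot be told apart.

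Promoter sequences are described first, although the fold changes of these libraries had been computed before the search. They were searched because ATF4 is known to bind the C/EBP-ATF response element and several synthetase genes carry one. Of the 39 genes, 33 had an entry in the RefSeq promoter table (GRCh38.p14, 250 bases before to 50 bases after the start site). AARS2, LARS1, TARS3, VARS1, VARS2 and YARS1 had none. The letters TGATGNAAN, searched on both strands, were found in 6 of 14 cytosolic promoters and in 1 of 14 mitochondrial ones. They were found in 3.67% of all 27305 promoters of the same length. The 7 matches are shown on the strand of the gene with 10 bases on each side, and capitals mark the match.
AARS1: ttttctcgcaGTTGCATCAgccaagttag
CARS1: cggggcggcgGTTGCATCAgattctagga
IARS1: ttttcagcgcGTTGCATCAcctccgtgcg
MARS1: gccggttccgGTTGCATCAgcgagggatt
TARS1: gcgcctttcgATTGCATCAgctggtccag
NARS1: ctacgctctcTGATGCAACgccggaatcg
YARS2: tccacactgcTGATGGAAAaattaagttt
AARS1, CARS1, IARS1 and MARS1 held the same 9 letters, read here from the opposite strand of the element, and NARS1 held their reverse complement. The AARS1 sequence lies at chr16:70289676-70289704 on the minus strand, and its match begins 188 bases before the start site, outside any annotated exon. The IARS1 sequence, chr9:92293693-92293721 on the minus strand, also lies outside its gene, with the match 14 bases before the start. In CARS1 (chr11:3057408-3057436, minus strand) and MARS1 (chr12:57488053-57488081, plus strand) the match reaches over the start site into the annotated first exon. Those of TARS1 (chr5:33440956-33440984, plus strand) and NARS1 (chr18:57621804-57621832, minus strand) lie just past the start site, within an exon. The YARS2 match (chr12:32756076-32756104, minus strand) begins 197 bases before the RefSeq start site, in an exon of another YARS2 transcript. The palindromic E-box CACGTG, a site of MYC and its partners, was found in 4 of the 33 promoters (CARS2, EARS2, IARS1 and MARS2), against 7.43% of all promoters. Such a match is a description of the letters only.

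After MALAT1 knockdown the class median of the cytosolic synthetases lay below that of the mitochondrial ones in every line. The lowest mean fold change was that of WARS1, the cytosolic tryptophanyl-tRNA synthetase, whose scaled reads changed by -35.4% in H1299, -45.2% in A549 and -48.9% in H460. AARS1, CARS1, the mitochondrial SARS2 and MARS1 followed. They were past a 1.5-fold decrease in both H1299 and A549, while in H460 they stood at -0.07 to -0.25 on the log2 scale. No synthetase or scaffold gene went past a 1.5-fold increase in any line, whereas the arginyl enzymes RARS1 and RARS2 and the mitochondrial HARS2 and IARS2 lay slightly above their controls in all 3 lines in scaled counts. On log2(TPM + 1), RARS1 (-0.10) and HARS2 (-0.02) lay below theirs in H460, where 63.0% of all genes did on that scale.

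**Figure D1:**
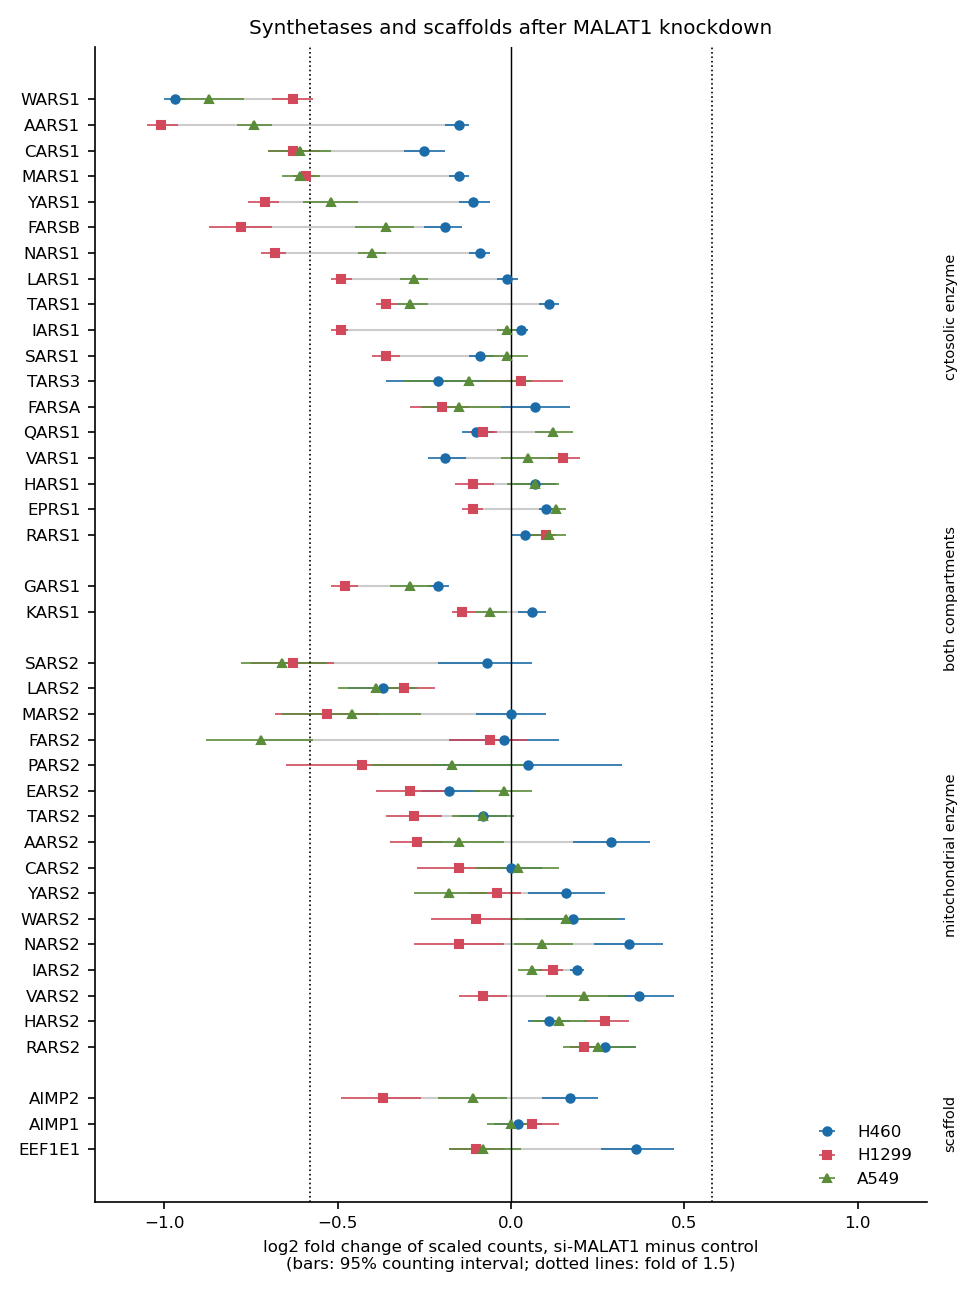
Log2 fold change of RLE-scaled counts, si-MALAT1 minus control, for each of the 39 genes, with H460 as circles, H1299 as squares and A549 as triangles. Bars are 95% intervals for counting error only and dotted lines mark a fold of 1.5. WARS1 is past the left line in all 3 lines, and no gene is past the right one.

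Within a line, the log2 fold change was taken between the si-MALAT1 and the control library on log2(scaled count + 1), where counts were scaled by the relative log expression (RLE) size factors, and a fold of 1.5 (0.58 on the log2 scale) was called a change in that pair of libraries. In H460, 1 of the 39 genes was past this fold downward, against 10.3% of all 17834 genes with a read in each library. In H1299 this held for 8 of 39, against 11.4%, and in A549 for 6 of 39, also against 11.4%. Upward the number was 0 in each line, where 9.5% of all genes were past the fold in H460, 11.7% in H1299 and 11.5% in A549. Among protein-coding genes with a mean count of at least 300, a set closer in abundance to the synthetases and chosen after seeing the data, the downward shares were 4.54%, 7.44% and 7.5% in the same order of lines. The upward shares of that set were 4.15%, 8.68% and 5.98%. Both H1299 and A549 showed a decrease past the fold for 5 of the 39 genes (AARS1, CARS1, MARS1, SARS2 and WARS1), against 3.73% of all genes. WARS1 alone passed it in all 3 lines, against 1.28%. On log2(TPM + 1), MARS1 (-0.52), SARS2 (-0.52) and WARS1 (-0.55) fell short of the line in H1299, so that 2 of the 39 genes (AARS1 and CARS1) passed it in both H1299 and A549 and 0 in all 3 lines, where 1.6% and 0.7% of all genes did.

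Smaller shifts were counted by their direction only. Log2 fold changes were below 0 for 18 of 39 genes in H460 (48.1% of all genes), 32 of 39 in H1299 (48.1%) and 27 of 39 in A549 (49.3%). Below 0 in all 3 lines were 15 of the 39 genes, against 18.8% of all genes, and above 0 in all 3 were 4, against 21.4%. On log2(TPM + 1), a count added after seeing the data, 30 of 39 genes lay below 0 in H460 (63.0% of all genes), 31 in H1299 (43.3%) and 26 in A549 (49.3%). Below 0 in all 3 lines were then 20 of 39 (21.1% of all genes) and above 0 in all 3 were IARS2 and RARS2 (17.2%).

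The paired test over the 3 lines called none of the 39 genes. In edgeR's quasi-likelihood test with cell line as a block, 0 members were called lower or higher at an adjusted p under 0.05. An unadjusted p under 0.05 was found for 10 of the 39. So it was for 2756 of the 16741 genes with a read in each library that the test covered. Among protein-coding genes with a mean count of at least 300 it was 2371 of 10834. That test had 2 residual degrees of freedom and called 0.00523% of 19122 genes lower (MALAT1 itself) and 0.0% higher. Restricted to the genes with a read in each library, the same test called 0.578% of them lower and included WARS1 (adjusted p = 0.0394). DESeq2, the tool named by the study, called 6 members lower (AARS1, CARS1, GARS1, LARS2, MARS1 and WARS1) and 0 higher, where 4.89% of the genes it tested were called lower and 5.31% higher. Whether a synthetase gene counted as changed across the lines thus differed between the tools.

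WARS1 charges the tryptophan tRNA and is the synthetase known to be induced by interferon gamma. In H460 its scaled count was 24664 in the control and 12599 in the si-MALAT1 library. H1299 had 5188 and 3352 scaled reads, and A549 had 2967 and 1625. Each si-MALAT1 library lay below its own control, but the 2 conditions overlapped across lines. H460 stood above the other lines in both conditions, and the H1299 si-MALAT1 library lay above the A549 control. H460 thus had a log2 fold change of -0.97 (95% interval -1.0 to -0.94). That of H1299 was -0.63 (-0.69 to -0.57) and that of A549 was -0.87 (-0.97 to -0.77). The 3 lines averaged -0.82 ± 0.17 (SD, n = 3), which gave an adjusted p of 0.0768 in edgeR's paired test and of 3.86e-09 in DESeq2. Its mitochondrial counterpart WARS2 had log2 fold changes of 0.18, -0.10 and 0.16.

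AARS1, the cytosolic alanyl-tRNA synthetase, had scaled counts of 15323 in the H460 control and 13774 in its si-MALAT1 library. In H1299 the counts were 12257 and 6105, the steepest decrease of any member in a line, with a log2 fold change of -1.01 (95% interval -1.05 to -0.96). In A549 they were 11488 and 6886. Over the lines the mean was -0.63 ± 0.44 (SD, n = 3) on the log2 scale, with adjusted p = 0.189 in edgeR and 0.0228 in DESeq2. All 3 controls lay above the H1299 and A549 knockdown libraries, while the H460 knockdown library lay above 2 of the controls. The mitochondrial AARS2 had log2 fold changes of 0.29, -0.27 and -0.15.

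**Figure D2:**
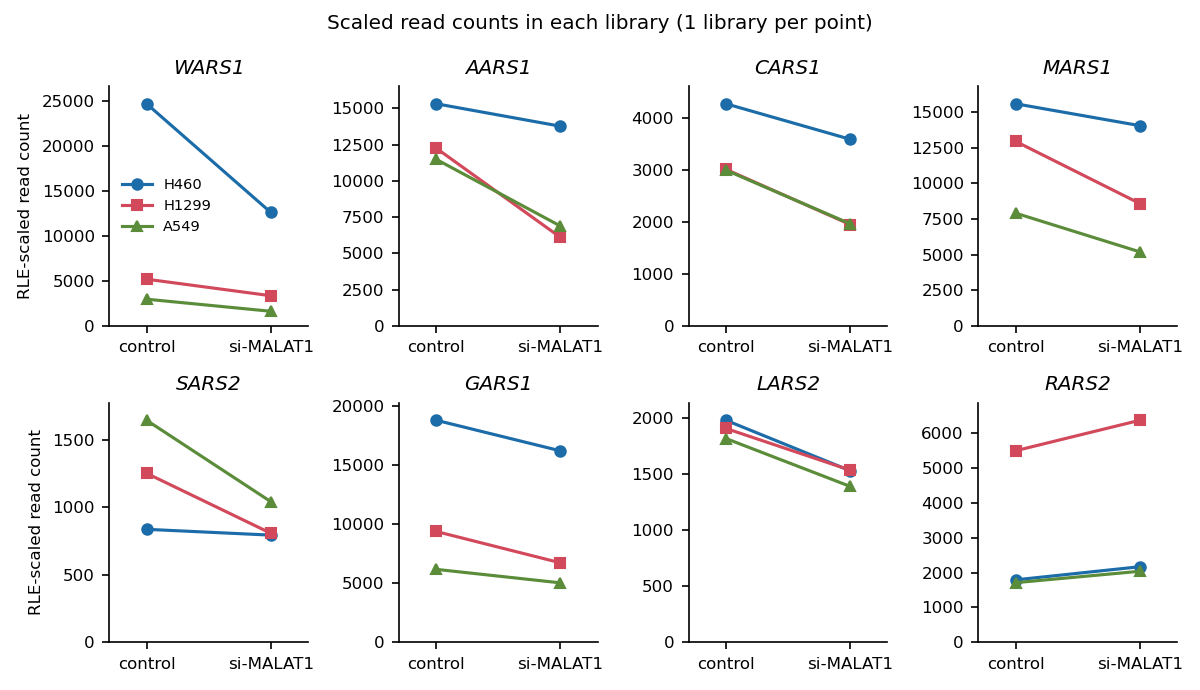
RLE-scaled read counts (linear axis from 0) of 8 genes in each library, with the control and the si-MALAT1 library of a line joined. The si-MALAT1 point of WARS1, GARS1 and LARS2 lies below the control in each line, the lines of AARS1, CARS1, MARS1 and SARS2 drop past 1.5-fold in H1299 and A549 only, and RARS2 is slightly above its control in each line.

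CARS1 charges the cysteine tRNA. For H460 the control held 4267 scaled reads and the si-MALAT1 library 3585. H1299 had 3008 and 1948, while A549 had 2992 and 1962. Log2 fold changes came to -0.25, -0.63 and -0.61, and in both of the latter the counting interval reached across the 1.5-fold line (to -0.55 and -0.52). The adjusted p was 0.154 in edgeR and 0.0114 in DESeq2.

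MARS1, the cytosolic methionyl-tRNA synthetase and a member of the multi-synthetase complex, went from 15579 to 14045 scaled reads in H460. H1299 went from 12942 to 8585, and A549 from 7908 to 5194. Changes of -0.59 and -0.61 on the log2 scale in these lines lay close to the 1.5-fold line, against -0.15 in H460 (adjusted p = 0.205 in edgeR and 0.0284 in DESeq2). MARS1 shares 68 exonic bases, 2.23% of its own, with the stress gene DDIT3 on the opposite strand.

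GARS1, which charges glycine tRNAs in both compartments, had 18760 and 16176 scaled reads in the H460 control and si-MALAT1 libraries. H1299 had 9367 and 6720, while A549 had 6169 and 5030. It lay below its control in each line without passing the 1.5-fold line, at an average of -0.33 ± 0.14 (SD, n = 3) on the log2 scale, with an adjusted p of 0.25 in edgeR and 0.0285 in DESeq2. KARS1, which serves both compartments with lysine, differed by 0.06, -0.14 and -0.06 on the log2 scale.

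Among the other cytosolic enzymes, FARSB, NARS1 and YARS1 passed the fold downward in H1299 only. NARS1, the asparaginyl enzyme, had log2 fold changes of -0.09, -0.68 and -0.40 in H460, H1299 and A549. YARS1, the tyrosyl enzyme, had -0.11, -0.71 and -0.52, and it shares 11.2% of its exonic bases with S100PBP on the opposite strand. FARSB encodes the beta chain of the phenylalanyl enzyme, a tetramer with FARSA as the alpha chain. FARSB had -0.19, -0.78 and -0.36 in scaled counts, but 0.18, -0.34 and 0.02 on log2(TPM + 1), so in H460 and A549 its direction differed between counts and TPM. FARSA had 0.07, -0.20 and -0.15.

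EPRS1, HARS1, QARS1, RARS1 and VARS1, which charge glutamate and proline, histidine, glutamine, arginine and valine tRNAs, stayed between -0.19 and 0.15 in every line. RARS1 had the highest mean of the cytosolic enzymes, 0.08 ± 0.04 (SD, n = 3). Scaled reads were 9300 and 9542 for the H460 pair, 10679 and 11442 for H1299, and 9002 and 9713 for A549. IARS1, LARS1, SARS1 and TARS1, for isoleucine, leucine, serine and threonine, were lowest in H1299 (-0.36 to -0.49) and lay between -0.29 and 0.11 in the other lines. TARS3, a second threonyl enzyme of the cytosol, had -0.21, 0.03 and -0.12 beside 0.11, -0.36 and -0.29 for TARS1.

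In the mitochondrial class, SARS2 and LARS2 were the members that stood out downward. SARS2 charges mitochondrial serine tRNAs, and its control and si-MALAT1 libraries held 838 and 795 scaled reads in H460. H1299 had 1253 and 809, while A549 had 1646 and 1043. The log2 fold change of H460 was -0.07 (95% interval -0.21 to 0.06), that of H1299 -0.63 (-0.75 to -0.51) and that of A549 -0.66 (-0.78 to -0.53), with adjusted p = 0.25 in edgeR and 0.162 in DESeq2. On log2(TPM + 1) its H1299 change was -0.52, short of the 1.5-fold line.

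LARS2, the mitochondrial leucyl-tRNA synthetase, lay below its control by a like amount in each line. The H460 pair had 1982 and 1532 scaled reads, the H1299 pair 1909 and 1537, and the A549 pair 1819 and 1392. The 3 control libraries did not overlap the 3 si-MALAT1 libraries. Its log2 fold changes averaged -0.36 ± 0.04 (SD, n = 3), with adjusted p = 0.198 in edgeR and 0.0247 in DESeq2.

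FARS2, the mitochondrial phenylalanyl enzyme, was past the fold in A549 alone (-0.72, against -0.02 in H460 and -0.06 in H1299). MARS2, the mitochondrial methionyl enzyme, had -0.53 in H1299 and -0.46 in A549 but 0.00 in H460. PARS2 for proline, the least abundant member, had 0.05, -0.43 and -0.17, on 223 to 441 reads per library.

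RARS2, the mitochondrial arginyl enzyme, had the highest mean of all members, 0.25 ± 0.03 (SD, n = 3). The scaled reads of the H460 pair were 1790 and 2166, those of the H1299 pair 5485 and 6357, and those of the A549 pair 1710 and 2036. It lay above its control in each line. The adjusted p was 0.362 in edgeR and 0.0912 in DESeq2, so the difference was past the threshold in neither. HARS2 for histidine had log2 fold changes of 0.11, 0.27 and 0.14, and IARS2 for isoleucine 0.19, 0.12 and 0.06. The other mitochondrial enzymes (AARS2, CARS2, EARS2, NARS2, TARS2, VARS2, WARS2 and YARS2) lay between -0.29 and 0.37.

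HARS1 and HARS2 lie head to head on chromosome 5 on opposite strands and share 284 exonic bases, 12.3% of HARS1 and 9.85% of HARS2. Since it is not stated whether reads were counted by strand, reads from that stretch cannot be told apart. The pair differed in direction in H1299 (-0.11 for HARS1 and 0.27 for HARS2), and both lay above 0 in H460 and A549.

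**Figure D3:**
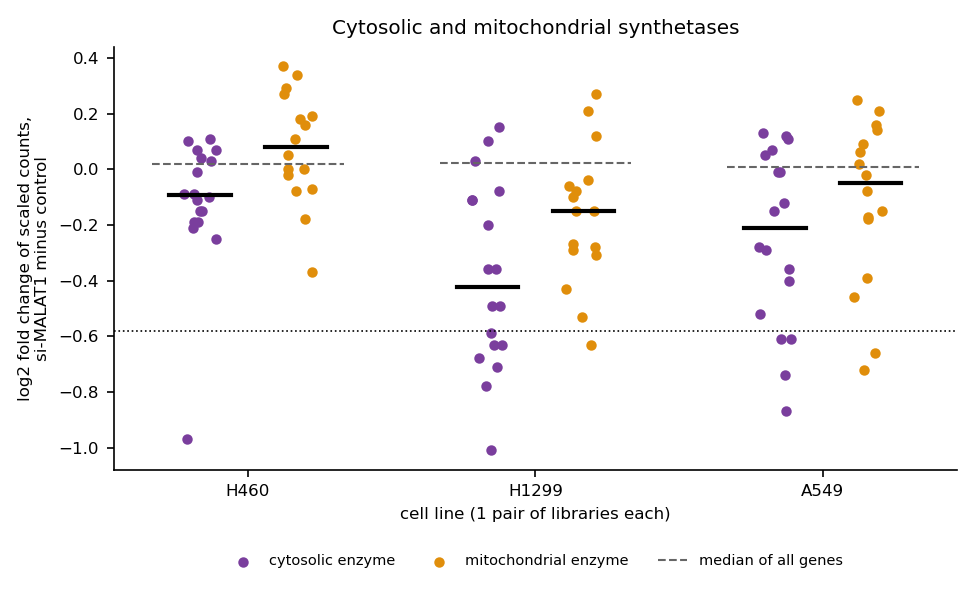
Log2 fold changes of scaled counts, si-MALAT1 minus control, for the 18 cytosolic and 16 mitochondrial enzymes in each line (1 point per gene, 1 pair of libraries per line). Black bars are class medians, dashed lines the median of all genes and the dotted line a fold of 1.5. The cytosolic median is the lower of the 2 in each line, and the classes overlap widely.

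The compartments were compared by description only, since genes are not replicates of a treatment. In H460 the median log2 fold change was -0.09 over the 18 cytosolic enzymes and 0.08 over the 16 mitochondrial ones, where the median of all genes was 0.02. In H1299 it was -0.42 for the cytosolic and -0.15 for the mitochondrial class, against 0.02. In A549 it was -0.21 and -0.05, against 0.01. Cytosolic minus mitochondrial medians were thus -0.17, -0.27 and -0.16. Past the 1.5-fold line downward were 1, 7 and 4 of the 18 cytosolic enzymes in H460, H1299 and A549, and 0, 1 and 2 of the 16 mitochondrial ones, to be read against the shares of all genes given above. On log2(TPM + 1) the difference between the medians in A549 shrank to -0.02 and that in H1299 to -0.19, and the cytosolic enzymes past the line in H1299 numbered 4.

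In summed TPM, the 18 cytosolic enzymes had 1408 and 1197 for H460, control first, against 1245 and 1011 for H1299 and 969 and 843 for A549. WARS1 alone made up 170 and 80.3 TPM of the H460 sums. In H460 the median log2 fold change of abundant protein-coding genes was itself -0.10 on log2(TPM + 1), against 0.02 in scaled counts. The 16 mitochondrial enzymes together had 329 and 327 TPM in the H460 pair, 279 and 289 for H1299, and 311 and 303 for A549.

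Within the cytosol, the 13 enzymes commonly raised by ATF4, a list drawn from general knowledge that includes GARS1, had medians of -0.11, -0.49 and -0.29 in H460, H1299 and A549. The other 7 cytosolic or shared enzymes had medians of 0.04, -0.11 and -0.06. Of the 13, 9 lay below 0 in all 3 lines, and of the other 7, 1 did, against 18.8% of all genes. The 6 cytosolic enzymes with the C/EBP-ATF element shown above (AARS1, CARS1, IARS1, MARS1, NARS1 and TARS1) had medians of -0.12, -0.61 and -0.50. Those of the 10 cytosolic or shared enzymes whose promoters lacked these letters in the window were -0.02, -0.17 and -0.03, although WARS1, with the largest mean decrease, was one of them. These lists were chosen with results of the same libraries known and were not tested.

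The 10 genes of the multi-synthetase complex had median log2 fold changes nearer 0 than the cytosolic enzymes outside it. Their medians were 0.03, -0.12 and -0.03, and MARS1 was the one gene of them past the 1.5-fold line in a line. Of all 17834 genes with a read in each library, 4378 were past it downward in any line. Of the 10835 protein-coding genes with a mean count of at least 300, 1518 were. For the 13 cytosolic or shared enzymes outside the complex the medians were -0.15, -0.48 and -0.29. Of the scaffolds, AIMP2 had the lowest mean, with 2065 and 2324 scaled reads in the H460 pair, 1209 and 933 in the H1299 pair and 2087 and 1928 in the A549 pair. EEF1E1 had the highest, with 1213 and 1558 for H460, 2154 and 2008 for H1299, and 1877 and 1780 for A549. AIMP1 had log2 fold changes of 0.02 in H460 and 0.06 in H1299, and its A549 interval (-0.07 to 0.07) held 0. AIMP2 shares 23.6% of its exonic bases with EIF2AK1 on the opposite strand, and EEF1E1 shares 34.3% with a readthrough gene on its own strand.

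ATF4 and the other genes of the amino acid response are listed beside the synthetases because they are known to move with them. ATF4 had log2 fold changes of -0.17, -0.60 and -0.84 (adjusted p = 0.192 in edgeR and 0.0224 in DESeq2). It shares 47.2% of its exonic bases with MIEF1 on the same strand, and in H1299 its TPM was 84.7 and 84.0. On log2(TPM + 1) the changes of ATF4 were -0.34, -0.01 and -0.38, short of the 1.5-fold line in each line. Over the 26 genes of this list the medians were -0.15, -0.57 and -0.17, and 1, 13 and 5 of them were past the 1.5-fold line downward in H460, H1299 and A549, where 10.3%, 11.4% and 11.4% of all genes were. Upward the numbers were 1, 3 and 2, against 9.5%, 11.7% and 11.5%. The cystine transporter gene SLC7A11 had -0.15, -1.86 and -0.90, and the asparagine synthetase gene ASNS had -0.28, -1.61 and -0.40. The stress regulator NUPR1 was the one listed gene past the fold in the same direction in all 3 lines, upward at 2.15, 0.79 and 1.39, but it rested on 2 to 149 reads per library. MYC had -0.18, -0.51 and -0.59 (adjusted p = 0.198 in edgeR and 0.026 in DESeq2).

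**Figure D4:**
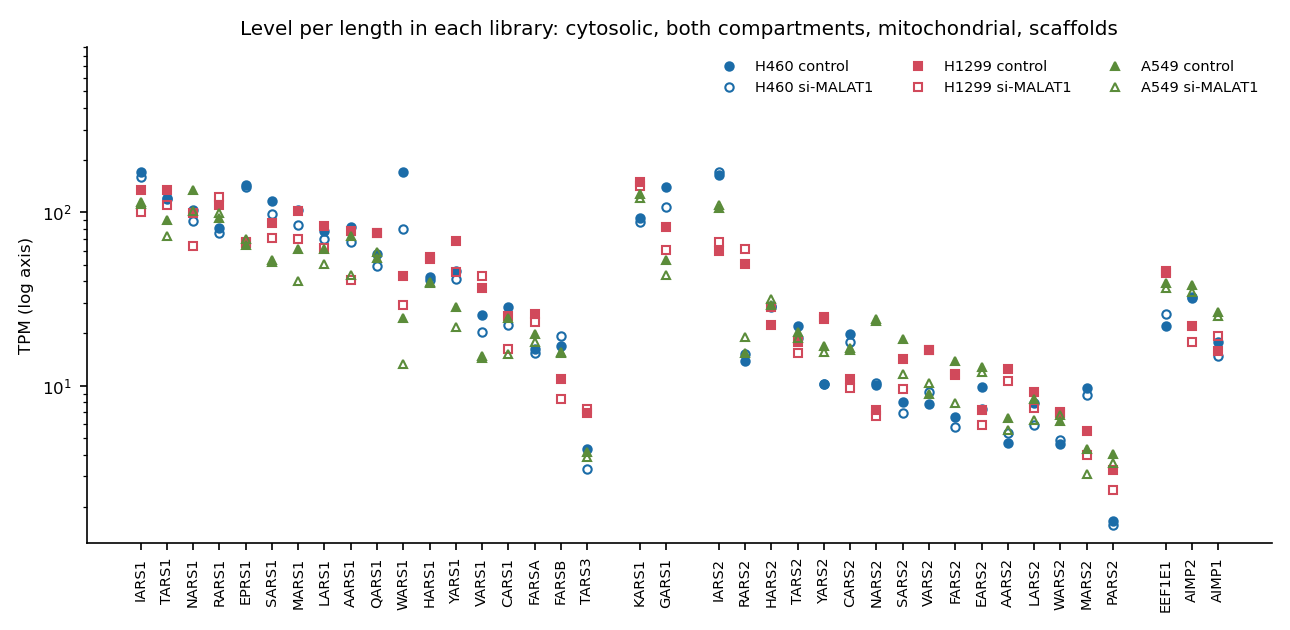
Deposited TPM of each gene in each library on a log axis, grouped as cytosolic enzymes, enzymes of both compartments, mitochondrial enzymes and scaffolds, each ordered by mean TPM. Filled symbols are controls and open symbols si-MALAT1 libraries. Most cytosolic enzymes lie above most mitochondrial ones, with IARS2 as the highest mitochondrial enzyme and WARS1 far higher in H460 than in the other lines.

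Levels between genes were compared in TPM, which is scaled for transcript length. The median TPM of the cytosolic enzymes was 41.7 to 79.6 in the 6 libraries, and that of the mitochondrial enzymes 8.98 to 14.6. IARS1 had the highest mean level (132 TPM), followed by KARS1 (120), the mitochondrial IARS2 (113), TARS1 (108) and NARS1 (98.8). Their order changed with the line, since KARS1 led in H1299 and A549 and ranked 10 in H460. PARS2 (2.76 TPM), TARS3 (4.98) and MARS2 (5.89) were lowest. TARS3 stood far below TARS1 in each library, with 3.30 to 7.36 TPM against 73.0 to 135.

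Levels were next compared between the cell lines. In the same edgeR fit, with 2 libraries per line, 18 of the 39 genes were higher and 7 lower in H460 than in H1299, where 26.6% and 26.0% of all genes were. Against A549, 16 were higher and 5 lower in H460 (19.3% and 18.9% of all genes). Between H1299 and A549, 13 were higher and 8 lower in H1299 (24.5% and 24.4%). All 12 cytosolic enzymes that differed between H460 and A549 were higher in H460, whereas of the 7 mitochondrial ones 3 were higher and 4 lower.

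These counts changed when single libraries were left out. Such a fit had fewer residual degrees of freedom than the full one, so fewer calls could follow for any gene. The shares of all genes under it are not given here, so the drops do not show that the levels of these genes rest on a single library. The 16 genes higher in H460 than in A549 became 6 without the A549 control, 6 without the A549 si-MALAT1 library and 10 without the H460 si-MALAT1 library, and the 5 lower ones became 0 without either A549 library or without the H460 control. The 13 genes higher in H1299 than in A549 became 3, 2 and 6 without the A549 control, the A549 si-MALAT1 library and the H1299 control, respectively, and the 8 lower ones became 2 and 5 without the first and the second of these. The 7 genes lower in H460 than in H1299 became 3 without the A549 control and 4 without the A549 si-MALAT1 library.

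WARS1 showed the largest difference between lines. It had 170 and 80.3 TPM in the control and si-MALAT1 libraries of H460, against 43.0 and 29.1 for H1299 and 24.4 and 13.3 for A549. On the log2 count scale it was 3.01 ± 0.16 (SE) higher in H460 than in A549 (edgeR quasi-likelihood test, adjusted p = 7.81e-05) and 2.09 ± 0.15 higher than in H1299 (adjusted p = 0.000149). It was also 0.92 higher in H1299 than in A549 (adjusted p = 0.00355). The lowest H460 library lay above the highest of the other lines.

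NARS2, the mitochondrial asparaginyl enzyme, went the other way, with 23.5 and 24.2 TPM in A549, 10.0 and 10.4 in H460 and 7.21 and 6.71 in H1299. It was 1.81 lower on the log2 scale in H1299 than in A549 (adjusted p = 0.000404 in edgeR). IARS2 had 164 and 170 TPM in H460, 107 and 110 in A549 and 59.6 and 67.6 in H1299, and was 1.74 higher in H460 than in H1299 (adjusted p = 0.000181). RARS2 was highest in H1299, at 50.4 and 61.3 TPM against 13.9 to 19.2 in the other libraries. For each of these 3 mitochondrial enzymes the gap between the highest line and the others exceeded the change within any line.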

How the data were processed

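Total RNA of 6 libraries was sequenced as stranded, ribosomal RNA-depleted libraries. Read trimming was followed by alignment with HISAT2 2.1.0 on hg38, and the authors quantified an NCBI annotation with StringTie, whose version is 1.3.4b in the submitters' processing notes. They deposited read counts, FPKM and TPM for each gene and library. Whether counting used strand is not given in the sources used here. The deposited table also held 18 columns of other samples, which were not used.

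Counts were fitted with edgeR 4.0.16 (R 4.3.3), using TMM scaling, the filterByExpr filter and a block for cell line, with p adjusted by Benjamini-Hochberg over 19122 genes, and with DESeq2 1.42.0 as the alternative. Both libraries of a pair came from the same cell line, and their deviations from the group means correlated at 0.894 in H460, 0.922 in H1299 and 0.884 in A549. Within a line, fold changes were taken on log2(RLE-scaled count + 1) with exact 95% Clopper-Pearson intervals, which cover counting error only. The deposited TPM gave levels between genes, and the deposited FPKM served as an alternative. The steps were tested on simulated data. Gene positions and exon overlaps came from the deposited GRCh38 annotation and promoters from RefSeq. The genes and lists were chosen with earlier results of these data known. All 39 genes were accounted for, and values in every library were given for those past 1.5-fold in 2 lines, called by a test, extreme in level, extreme in change within a class or most different between lines. P-values measure the spread between these libraries, and no source says that they came from separate cultures.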

Additional observations from a re-analysis of the deposited data

How the results depend on the processing

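Of the counts, medians and differences of medians above, 157 values recomputed under another setting stayed within 1.5 times the reported count or within 1 SD of the 3 lines for the medians, and 30 moved. Many of the values that stayed were counts of 0 under both settings, so the tally says little about stability. Of 39 recomputed medians and differences, 1 changed sign, the mitochondrial median in H460 (0.0798, and -0.0381 with TPM). The cytosolic medians lay nearest 0 in A549 and H460 with FPKM (-0.0891 and -0.0518), against -0.2126 and -0.0929 as reported. Both shifts were counted among the values that stayed. The number of genes called lower in the paired test was 6 with DESeq2 and 1 when every gene with a read in each library was tested, and 0 without any 1 line. Without the replicate block, which pairs the libraries of a line, it was 0 and the adjusted p of WARS1 was 1.00, against 0.0768 with it. The adjusted p of WARS1 ranged from 0.069 to 0.696 when 1 line was left out, and DESeq2 moved 6 genes past the threshold. Without the treatment term, 2 genes were lower in H460 than in A549 and 8 higher in H1299 than in A549. Leaving out 1 library gave 3 to 5 genes lower in H460 than in H1299, 0 to 4 lower and 6 to 16 higher in H460 than in A549, and 2 to 8 lower and 2 to 12 higher in H1299 than in A549. At a log2 fold change of 1, 0 cytosolic enzymes were past the line in H460, 1 was in H1299 and 0 were in A549, while among the mitochondrial ones it was 0 in H1299 and 0 in A549. With TPM, 4 cytosolic and 0 mitochondrial enzymes were past it in H1299 (0 mitochondrial with FPKM), and the cytosolic minus mitochondrial difference was -0.19 in H1299 and -0.0176 in A549. On TPM the median of abundant protein-coding genes moved by over 0.1 in H460, from 0.02 to -0.10. Without TARS3 the cytosolic minus mitochondrial difference in scaled counts was -0.34 in H1299 and -0.23 in A549. The cause of these shifts was not tested. With 1 library per line and condition, the paired test rests on the spread between the 3 lines, at 2 residual degrees of freedom.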

Other observations

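DESeq2 called 1 of 14 genes of mitochondrial translation lower and 0 higher, and of 13 genes of tRNA maturation and editing 2 lower and 1 higher, where it called 4.89% of all genes lower and 5.31% higher. In edgeR 0 of them were called, with 3 of the 14 and 4 of the 13 at an unadjusted p under 0.05. Of the tested genes with a read in each library, 2756 of 16741 were under that threshold. Over the 14 factors of mitochondrial translation the median log2 fold change was -0.05 in H460, -0.22 in H1299 and -0.15 in A549. GFM2, which releases mitochondrial ribosomes after termination, had -0.43, -0.89 and -0.80 (adjusted p = 0.102 in edgeR and 0.000151 in DESeq2). Over the 13 genes of tRNA maturation and editing the medians were 0.04, -0.13 and -0.15. PUS1, a pseudouridine synthase of tRNAs, had -0.28, -0.97 and -0.95 (adjusted p = 0.158 in edgeR and 0.0365 in DESeq2). NSUN2, a tRNA cytosine methyltransferase, had -0.32, -0.39 and -0.57 (adjusted p = 0.163 in edgeR and 0.00363 in DESeq2). HSD17B10, a subunit of mitochondrial RNase P, lay above its control in each line at 0.43, 0.40 and 0.25 (adjusted p = 0.226 in edgeR and 0.0107 in DESeq2).

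The 7 cytosolic elongation factor genes, which deliver charged tRNAs to the ribosome or move it along, had medians of 0.07, -0.08 and 0.08. A 1.5-fold change in any line was passed by 0 of them. Of the 10835 protein-coding genes with a mean count of at least 300, 1518 passed it downward and 1544 upward. Of all 17834 genes with a read in each library, 4378 and 4432 did. SESN2, a stress-induced regulator of amino acid sensing and known ATF4 target, lay above its control in each line at 0.39, 0.76 and 1.49 (adjusted p = 0.171 in edgeR and 0.0184 in DESeq2), while the heavy chain gene of amino acid transporters, SLC3A2, lay below it at -0.21, -0.88 and -0.63 (adjusted p = 0.173 in edgeR and 0.0136 in DESeq2).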
